A study of Mus musculus with 6 samples.

Results

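The 38 Hox genes studied here were 10 genes of the HoxA cluster, 10 of HoxB, 9 of HoxC and 9 of HoxD, and they were examined for acetylated histone H3 (H3ac) in mouse mesenchymal stem cells (MSCs). A Hox gene was counted as covered when a region of the deposited H3ac table overlapped its body extended by 2000 bp on both sides, which selected 8 of the 24431 regions and covered 22 of the 38 genes. H3ac was profiled by CUT&RUN, in which an antibody directs a nuclease to marked chromatin in permeabilised cells and the DNA set free is sequenced. Each of 3 groups had 2 libraries. Young MSCs were from mice of 3 to 5 months and were untreated. Old MSCs were from mice of 18 to 22 months and were also untreated. OldAcetate MSCs, also from mice of 18 to 22 months, had been given sodium acetate at 5 mM over 3 days. Cultures of the 3 groups were grown under 2% oxygen in αMEM with 10% FBS and 1% penicillin and streptomycin. The labels give neither the body site the cells came from nor whether the 2 libraries of a group came from separate animals, so that p-values measure the spread between these libraries, which may be technical.

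Hox genes encode homeodomain transcription factors that set position along the head-to-tail axis and along the limb. In mammals they lie in 4 clusters that arose from a common ancestral one, genes of the same number in different clusters are called paralogs, and low-numbered genes are used towards the head while high-numbered genes are used towards the tail and the tip of the limb. Stromal cells of adults often keep the set of Hox genes of the site where they formed. Active Hox genes carry acetylated histones over long stretches of a cluster, whereas inactive ones are commonly held by Polycomb proteins, and histone acetylation is built from acetyl-CoA, which cells can make from acetate.

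The libraries held between 2163351 and 3039481 reads, of which 45.9% to 64.8% lay in regions, with the 2 lowest shares in the Old libraries. Levels were given as RPM, the reads of a region per 1000000 reads of the library, and 1 read was worth 0.329 to 0.462 RPM. The 8 Hox regions held between 19 and 777 reads per library, so that counting error alone was 22.9% for the lowest value and 3.59% for the highest. Regions overlapped a start site of 11 of 11 mesenchymal stromal marker genes, Prrx1, Pdgfra and Cxcl12 among them, of 2 of 6 haematopoietic markers (Spi1 and Csf1r) and of 0 of 4 endothelial markers. By the wider rule used for the Hox genes, 2 of the 4 endothelial markers were covered, Pecam1 by 4 regions and Kdr by 1, away from their start sites. Of all protein-coding genes, 57.7% had a start site in a region and 63.3% were covered by the wider rule. The defining haematopoietic gene Ptprc had no region. The haematopoietic regions had mean levels of 20.5 RPM at Spi1 and 15.3 RPM at Csf1r, against 159 RPM for the strongest region at Prrx1. Their part in the Hox values was not tested. A level is an average over the cells of a culture, so that a mark on fewer cells and less mark per cell cannot be told apart.

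The 4 Hox clusters differed in whether they appeared in the H3ac table at all. HoxA had 9 of 10 genes covered, HoxC had 8 of 9, HoxD had 5 of 9 and HoxB had 0 of 10. In sum, 22 of 38 Hox genes (57.9%) were covered, while 63.3% of the 21755 protein-coding genes were covered by the same rule, so that the share for the Hox genes as a whole was near the background. Without the extension, 21 Hox genes (55.3%) overlapped a region, against 61.7% of protein-coding genes, and the gene lost was Hoxd10. Counting a gene only when a start site of any of its transcripts lay in a region left 20 Hox genes (52.6%, against 57.7% of protein-coding genes), and so did counting only the 5′ end of the gene (54.3% of protein-coding genes). Extending the body by 10000 bp added Hoxa13, Hoxc12, Hoxd1 and Hoxd11, for 26 genes (68.4%, against 67.8%). Regions at or above the median level of 15.7 RPM covered 21 Hox genes (55.3%, against 42.3%), and Hoxc13 was the gene that dropped out. The table holds 1 set of regions for all libraries, and coverage was not compared between ages or treatments. Region names carry letters that may mark the groups of a call, and those of the Hox regions are given below. A gene without a region is one with no listed region, not one shown to have no signal.

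**Figure D1:**
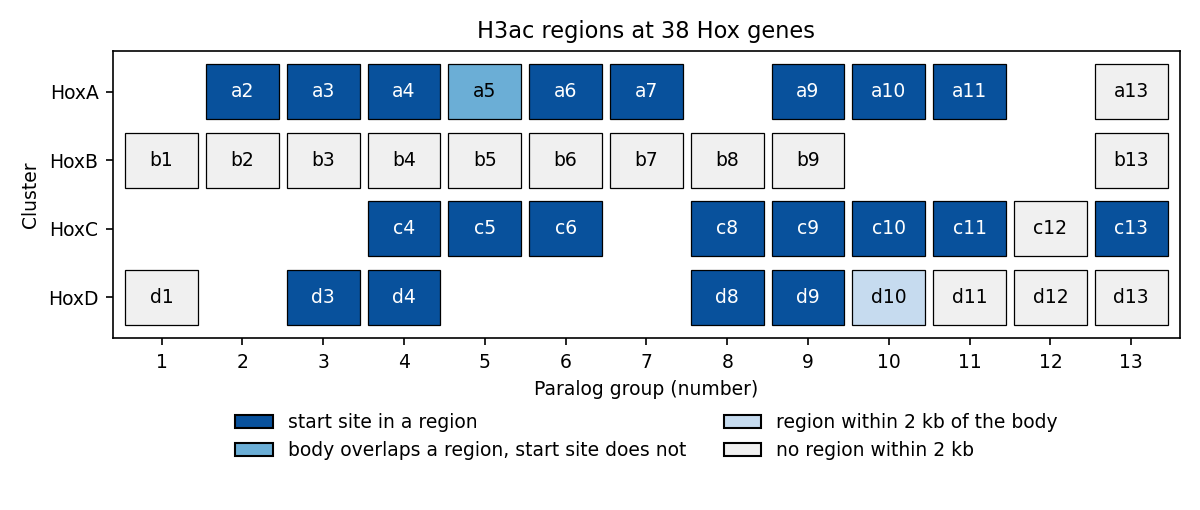
Grid of the 38 Hox genes, with the paralog number on the x axis and the cluster on the y axis. Each box is a gene and its colour gives how it met a region of the table. The whole HoxB row, with 0 of 10 genes covered, and most genes of groups 12 and 13 had no region within 2000 bp.

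By paralog number, coverage was complete only in group 10, which has no HoxB member, with Hoxa10, Hoxc10 and Hoxd10 all covered. Hoxd10 was counted only through the 2000 bp extension, and 2 of the 3 genes had a start site in a region. Genes of this group are known for suppressing ribs in the lumbar spine. Group 1 had 0 of 2 genes covered (Hoxb1, a gene of the embryonic hindbrain, and Hoxd1). Group 2 had 1 of 2, group 3 had 2 of 3, group 4 had 3 of 4, groups 5 and 6 had 2 of 3 each, group 7 had 1 of 2, group 8 had 2 of 3 and group 9 had 3 of 4. In each of groups 2 to 9 the uncovered member was the HoxB gene. Group 11, whose genes pattern the forearm, the lower leg and the kidney, had Hoxa11 and Hoxc11 covered and Hoxd11 not. Group 12 had 0 of 2 covered (Hoxc12 and Hoxd12). Group 13 had 1 of 4, namely Hoxc13, a gene of hair and nails, while Hoxa13 and Hoxd13, which are needed for digits, and Hoxb13, a gene of the tail end and the prostate, were uncovered.

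HoxA (chr6) was covered over 84.9% of its 98464 bp span by 3 regions (mm10 coordinates). The first, at chr6:52150001-52167500, held the whole body of Hoxa2, a gene of the hindbrain and second pharyngeal arch, together with the start of the non-coding RNA Hotairm1. The second, at chr6:52171001-52202000, held Hoxa4 and much of the long annotated body of Hoxa3, and reached only 247 bp (8.72%) into the body of Hoxa5, whose start lay 2587 bp beyond its edge. The third, at chr6:52207501-52255000, held the starts of Hoxa3, Hoxa6, Hoxa7, Hoxa9, Hoxa10 and Hoxa11, and the microRNA gene Mir196b. It ended between Hoxa11 and Hoxa13, 2694 bp short of the body of Hoxa13. Hottip, the non-coding RNA beyond Hoxa13, had no region and lay 7775 bp from the nearest one.

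HoxC (chr15) was covered over 77.5% of its 115750 bp span. A single region of 68500 bp, at chr15:102952501-103021000, held the starts of all 7 covered genes from Hoxc11 to Hoxc4, as well as the microRNA genes Mir196a-2 and Mir615. An adjoining region at chr15:103021501-103041500 held the 3′ part of Hoxc4. Hoxc13 had a separate small region at chr15:102920001-102924000, which held its start and 37.6% of its body. Between them, Hoxc12 had none within 2000 bp. The nearest region to Hoxc12, 2892 bp away, lay over the 3′ end of the non-coding RNA Hotair and not over its start, and it had a mean level of 6.60 RPM.

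HoxD (chr2) was covered over 27.4% of its 96833 bp span. The main region, at chr2:74696501-74717000, held the whole bodies of Hoxd8 and Hoxd9 and the GENCODE starts of Hoxd3 and Hoxd4, which lie 2 bp apart. It did not reach the body of Hoxd10, which was counted only through the 2000 bp extension and lay 1396 bp away. A second, smaller region at chr2:74748501-74754500 lay just downstream of Hoxd3 and over the start of the non-coding RNA Haglr. Beyond the main region, towards the high-numbered end, lay Hoxd11 at 9485 bp, Hoxd12 at 18796 bp and Hoxd13 at 24902 bp. The main region is the nearest to each of them, so these distances follow from gene order alone. At the opposite end Hoxd1 lay 8480 bp from a region. Evx1 and Evx2, the homeobox genes that stand beside Hoxa13 and Hoxd13, had no region.

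HoxB (chr11) lay inside an interval of 327000 bp without any region, chr11:96077001-96404000. The interval held 12 protein-coding genes, the 10 HoxB genes with Calcoco2 and Ttll6. Of 24411 intervals between neighbouring regions, 1183 (4.85%) were at least as long, and 92 of those held at least as many protein-coding genes. The median interval was 29000 bp. Distances from HoxB genes to the nearest region ran from 35745 bp for Hoxb1 to 127406 bp for Hoxb9. Hoxb4, known for its use in blood stem cells, lay 82363 bp away. Soft-masked repeats made up 24.6% of the HoxB span, against 13.4% of HoxA, 15.9% of HoxC and 14.4% of HoxD. The HoxB span includes the long stretch without member genes between Hoxb13 and Hoxb9. Any link of repeats to the lack of regions was not tested.

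**Figure D2:**
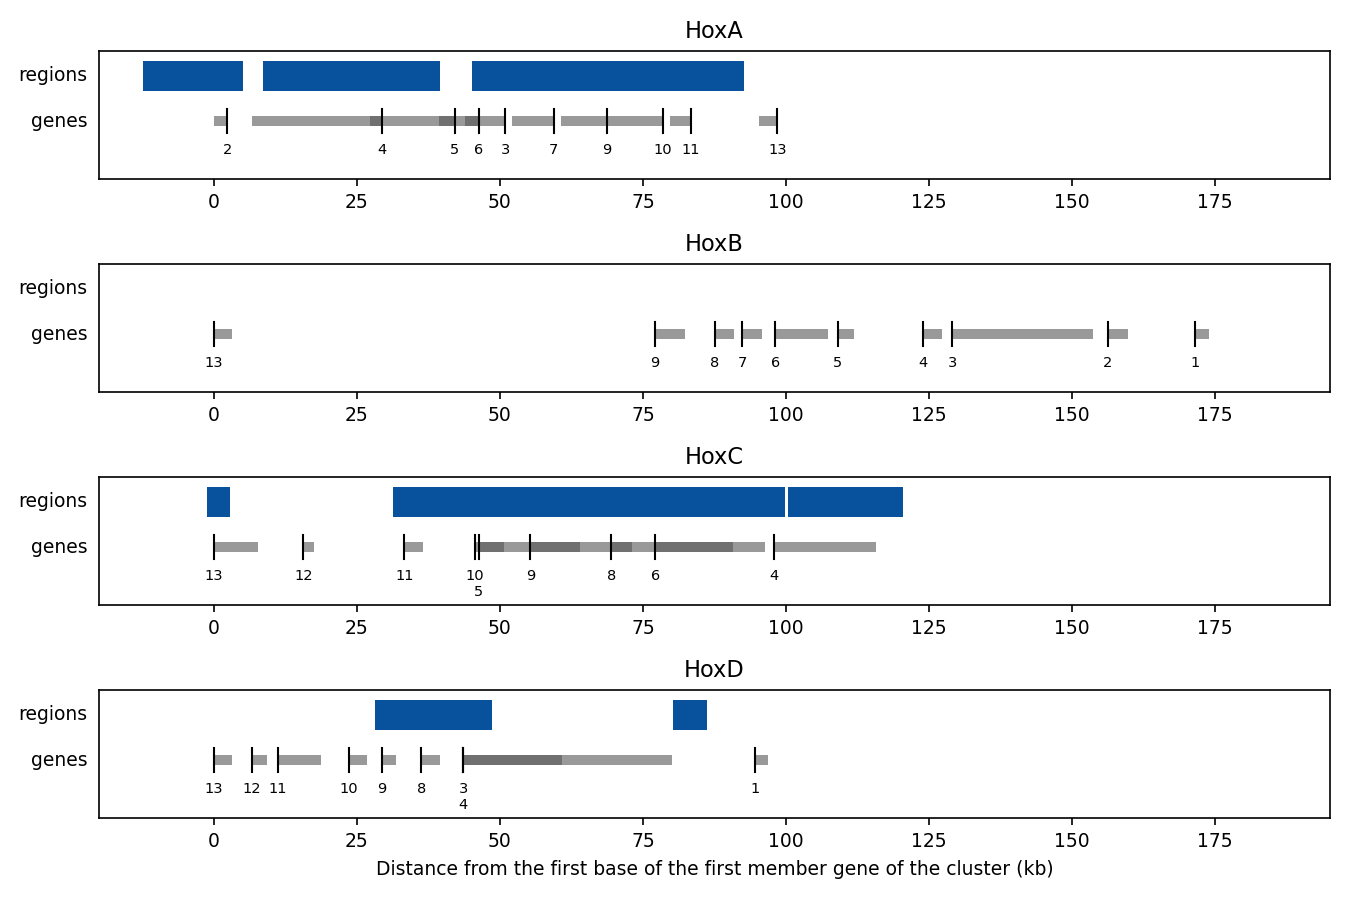
Map of the 4 clusters on the same scale, with distance from the first base of the first member gene on the x axis (kb). Blue bars are the selected Hox regions only, grey bars are gene bodies, and black ticks with the paralog number mark the 5′ end of each gene. Other listed regions in the drawn windows are not shown, such as that over the 3′ end of Hotair in HoxC. Regions run through most of HoxA and HoxC, take up 27.4% of HoxD and are missing from HoxB.

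Start sites of Hox genes held similar numbers of CpG inside and outside regions. In the 300 bases from 250 before to 50 after the 5′ end of the gene, the median was 16 CpG for the 20 Hox genes with that end in a region and 15 CpG for the 18 with it outside. For protein-coding genes as a whole, the median was 20 CpG for the 11818 inside regions and 3 CpG for the 9937 outside. HoxB starts had a median of 13.5 CpG, from 3 at Hoxb2 to 23 at Hoxb9. The difference between Hox genes and other genes outside regions was not tested, and the windows describe the reference genome, not the cells.

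Upstream sequences of paralogs that differed in coverage are shown here, so that a gene inside a region can be read beside a relative outside one. The 250 bases before the RefSeq start (GRCm38) are given 5′ to 3′ on the gene's strand, with each CG in capitals.
Hoxc4, inside a region, chr15:103034145-103034394, + strand: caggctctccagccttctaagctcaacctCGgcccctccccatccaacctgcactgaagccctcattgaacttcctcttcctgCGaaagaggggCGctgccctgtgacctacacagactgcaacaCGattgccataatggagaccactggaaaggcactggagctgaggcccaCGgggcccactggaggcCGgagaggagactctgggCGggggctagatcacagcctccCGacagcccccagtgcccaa
Hoxb4, outside a region, chr11:96318017-96318266, + strand: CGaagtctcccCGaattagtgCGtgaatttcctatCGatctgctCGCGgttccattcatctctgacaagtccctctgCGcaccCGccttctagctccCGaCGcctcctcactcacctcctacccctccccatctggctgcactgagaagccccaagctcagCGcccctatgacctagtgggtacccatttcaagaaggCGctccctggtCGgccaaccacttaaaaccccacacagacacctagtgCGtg
Hoxd8, inside a region, chr2:74704365-74704614, + strand: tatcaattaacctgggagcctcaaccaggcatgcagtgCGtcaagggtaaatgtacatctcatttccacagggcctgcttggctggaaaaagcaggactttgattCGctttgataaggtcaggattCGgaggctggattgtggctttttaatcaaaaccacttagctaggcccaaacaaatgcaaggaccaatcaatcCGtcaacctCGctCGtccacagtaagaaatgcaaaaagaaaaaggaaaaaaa
Hoxb8, outside a region, chr11:96281655-96281904, + strand: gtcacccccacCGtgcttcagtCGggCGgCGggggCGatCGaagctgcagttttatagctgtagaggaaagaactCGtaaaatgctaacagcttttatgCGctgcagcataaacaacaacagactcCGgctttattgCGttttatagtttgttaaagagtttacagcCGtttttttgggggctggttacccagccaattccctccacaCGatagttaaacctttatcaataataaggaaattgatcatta
Hoxa11, inside a region, chr6:52245811-52246060, - strand: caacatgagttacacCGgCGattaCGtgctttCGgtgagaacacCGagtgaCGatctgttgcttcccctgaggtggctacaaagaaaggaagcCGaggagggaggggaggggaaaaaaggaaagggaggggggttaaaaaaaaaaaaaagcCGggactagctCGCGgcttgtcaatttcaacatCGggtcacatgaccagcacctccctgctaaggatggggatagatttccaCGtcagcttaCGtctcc
Hoxd11, outside a region, chr2:74679308-74679557, + strand: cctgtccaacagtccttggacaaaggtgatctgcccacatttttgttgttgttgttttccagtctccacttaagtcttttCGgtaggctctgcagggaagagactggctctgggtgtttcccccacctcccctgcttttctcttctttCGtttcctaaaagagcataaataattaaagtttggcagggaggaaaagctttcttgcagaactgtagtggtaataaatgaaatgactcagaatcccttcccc
The Hoxc4 sequence held 8 CG and that of Hoxb4 held 14. Hoxd8 had 6 CG and Hoxb8 had 12. Hoxa11 had 13 CG and Hoxd11 had 2. Hoxd11 has a second RefSeq start, not shown, whose 300-base window held 25 CG, against 4 CG in the window of the printed start and 15 CG in that of Hoxa11, so that the order of this pair depended on the start used. RefSeq promoter windows were at hand for 22 of the 38 genes (24 windows). The RefSeq start of Hoxc4 lies in the 3′ Hoxc4 region, and that of Hoxd4, unlike its GENCODE start, lies outside the Hoxd regions. A binding motif of HOX and PBX proteins, TGATTNAT read on both strands, was in 2 of the 24 Hox windows (8.33%), at Hoxa2 and at the second start of Hoxd11, not the printed one, and in 3.22% of all 32851 windows of the same length.

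The clusters also hold microRNA genes of 2 seed families, miR-10 and miR-196, both of which target Hox messages, and Mir615. Their mature sequences from RefSeq (GRCm38) are shown because copies of the same microRNA differed in coverage, with the seed (bases 2 to 8) in capitals.
miR-10a-5p: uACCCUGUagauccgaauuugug
miR-10b-5p: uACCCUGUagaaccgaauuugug
miR-196a-5p: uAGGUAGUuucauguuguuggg
miR-196b-5p: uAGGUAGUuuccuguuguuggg
miR-615-3p: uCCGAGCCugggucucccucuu
MiR-10a-5p and miR-10b-5p share a seed and differ by U12A, counted from the 5′ end of miR-10a-5p. Their genes Mir10a (HoxB) and Mir10b (HoxD, 9070 bp from a region) were both uncovered. MiR-196a-5p and miR-196b-5p share the other seed and differ by A12C. The miR-196a-5p sequence is made from Mir196a-1 in HoxB, which was uncovered, and from Mir196a-2 in HoxC, which lay in the large HoxC region, while Mir196b lay in the large HoxA region. A region of this size says nothing about a single gene inside it, microRNA genes included.

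The region over Hoxc4 to Hoxc11 had the highest level of the 8. Its values were 234 and 215 RPM in the Young libraries, 196 and 182 RPM in the Old libraries, and 261 and 219 RPM in the OldAcetate libraries. Both Old libraries were lower than the other 4. As given, both Old libraries were below both Young libraries in 60.2% of all regions and below both OldAcetate libraries in 47.1%. Once each library was scaled to a common median, both Old libraries were above both Young libraries in this region (16.9% of all regions). Its mean of 218 RPM ranked 30th of the 24431 regions, and its length of 68500 bp ranked 44th. The 20000 bp region over the 3′ part of Hoxc4 had 43.8 and 40.0 RPM in Young, 41.6 and 33.8 RPM in Old, and 38.6 and 46.3 RPM in OldAcetate, and its groups overlapped. The Hoxc13 region, of 4000 bp, had 9.54 and 7.76 RPM in Young, 10.2 and 8.35 RPM in Old, and 15.8 and 10.0 RPM in OldAcetate. Its Young and Old values overlapped, and OldAcetate replicate 1 was the highest.

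The region over Hoxa6 to Hoxa11 came next. It had 159.6 and 154 RPM in Young, 124 and 128 RPM in Old, and 151 and 159 RPM in OldAcetate. As in the large HoxC region, both Old libraries lay below the other 4, where the same order against Young held in 60.2% of all regions. It ranked 127th by level and 159th by length. The region over Hoxa4 and the body of Hoxa3 had 61.9 and 68.2 RPM in Young, 54.5 and 58.5 RPM in Old, and 57.1 and 62.6 RPM in OldAcetate, where the OldAcetate values overlapped both other groups. The Hoxa2 region had 47.4 and 40.8 RPM in Young, 45.3 and 35.8 RPM in Old, and 40.3 and 51.7 RPM in OldAcetate, and here all groups overlapped.

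The main HoxD region, over Hoxd8, Hoxd9 and the starts of Hoxd3 and Hoxd4, had 69.4 and 58.8 RPM in Young, 53.2 and 48.9 RPM in Old, and 63.8 and 38.4 RPM in OldAcetate. The OldAcetate replicates enclosed all other values but the highest. They held 190 and 92 reads and differed 1.66-fold (95% interval 1.30 to 2.13, counting error only), a scaled difference larger than that of 99.9% of the 1707 regions of 20000 bp or more in the same libraries. The region downstream of Hoxd3 had 14.1 and 13.9 RPM in Young, 9.24 and 11.9 RPM in Old, and 9.74 and 8.34 RPM in OldAcetate. Both Young libraries were above the other 4. As given, both Young libraries were above both Old libraries in 60.2% of all regions and above both OldAcetate libraries in 29.8%. The name of this region carries only the letter Y, as do 4.66% of all regions. The letter is read here as a call in Young, although the labels do not define the letters. On that reading the region is listed through Young alone, so Young being highest follows in part from the selection and is not a result. Hoxc13 carried the letters of OldAcetate and Young, as did 12.1% of all regions. On the same reading it is not listed through Old, so Old being low there would follow in part from the selection. The other 6 Hox regions carried those of all 3 groups, as did 80.6% of all regions. Few regions lacked the letter Y, namely 4 with the letters of OldAcetate and Old, 3 with that of OldAcetate and 1 with that of Old. If the letters are calls, almost all listed regions were called in Young.

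**Figure D3:**
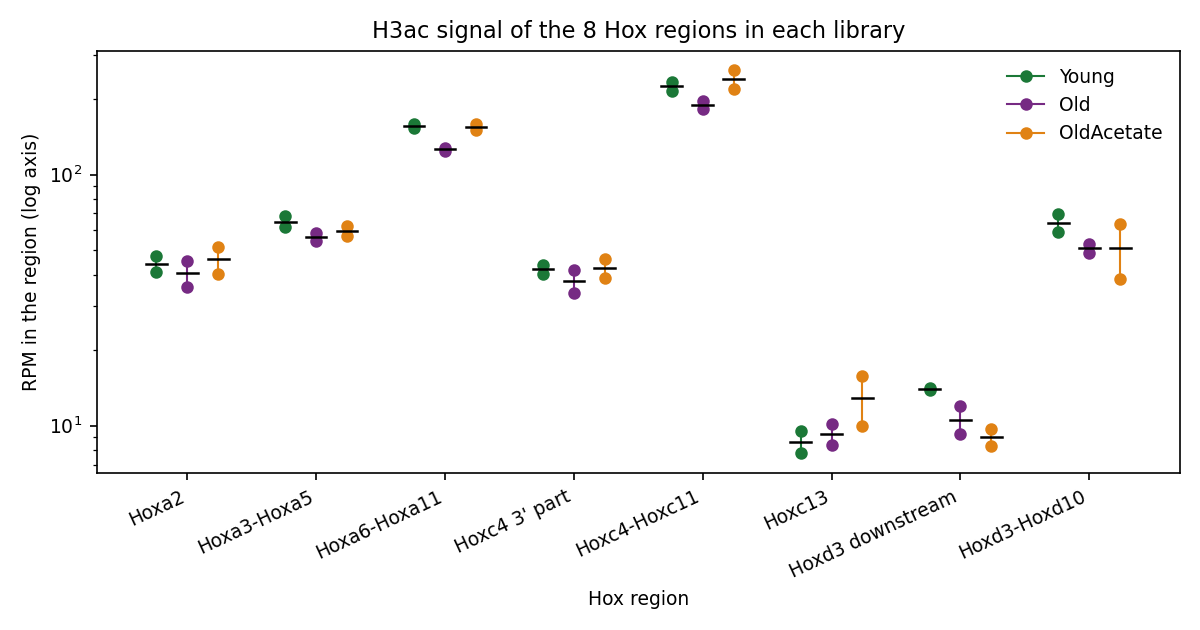
H3ac level of the 8 Hox regions, with RPM on a log axis and the regions on the x axis. Each dot is 1 library, a coloured line joins the 2 libraries of a group and a black bar is their mean. The Hoxc4-Hoxc11 and Hoxa6-Hoxa11 regions sit above 100 RPM with Old below Young and OldAcetate. As given, both Old libraries were below both Young libraries in 60.2% of all regions. The OldAcetate dots of the Hoxd3-Hoxd10 region lie farthest apart, at 63.8 and 38.4 RPM.

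The high levels of the large Hox regions went with their length. Per kb, the Hox regions had between 1.87 and 3.18 RPM, with a median of 2.53 RPM per kb, against 2.70 RPM per kb for all regions and 2.64 RPM per kb for regions of 20000 bp or more. The Hoxc4 to Hoxc11 region was at 3.18 RPM per kb and the Hoxa6 to Hoxa11 region at 3.07 RPM per kb, which placed them above 84.8% and 79.7% of regions of 20000 bp or more. The Hoxa4 region (1.95 RPM per kb) and the 3′ Hoxc4 region (2.03 RPM per kb) were at the other end, above 3.87% and 7.09% of such regions. Hox regions had a median of 26.2 CpG per kb and of 14.4% repeat bases, where all regions had 14 CpG per kb and 18.9% repeat bases.

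**Figure D4:**
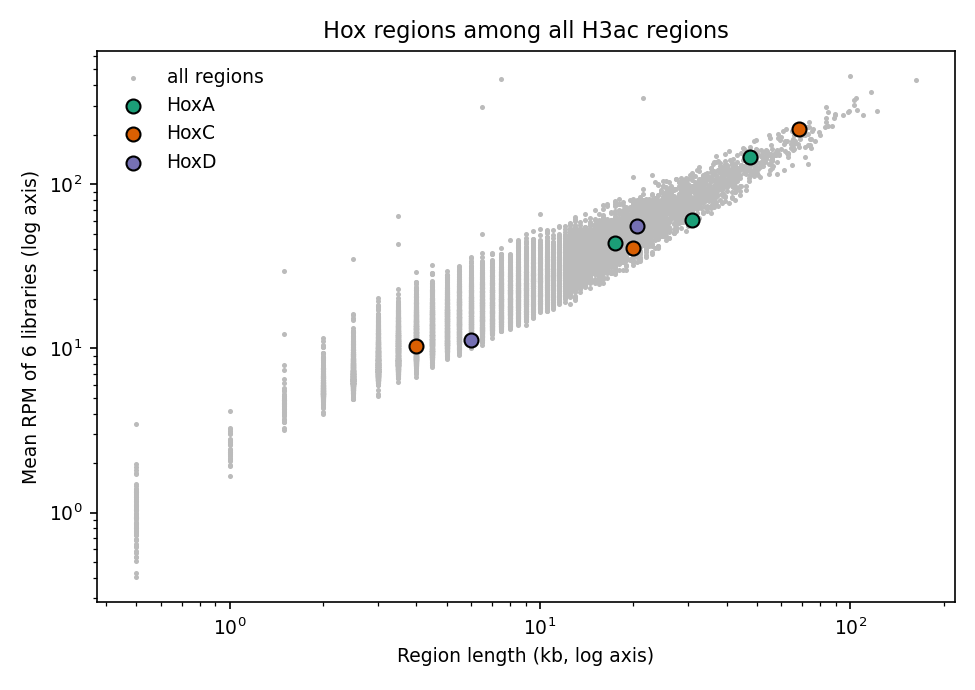
Mean level of the 6 libraries (RPM, log axis) against region length (kb, log axis) for all 24431 regions in grey and for the Hox regions in colour by cluster. The Hox regions lie within the band of all regions, with the largest HoxC and HoxA regions near its upper right end.

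To ask whether H3ac on Hox regions differed with age, Old was compared with Young by limma over all 24431 regions with Benjamini-Hochberg adjustment, once after scaling each library to a common median and once with RPM as given. Scaling mattered because the median of all regions was at -0.35 (log2) with RPM as given. No Hox region passed an adjusted p of 0.05 in either fit, where 0.00819% of all regions passed after scaling and 9.52% passed as given. At an unadjusted p under 0.05, 0 Hox regions passed after scaling (5.54% of all regions) and 2 as given (32% of all regions). Tested by edgeR on the recovered reads, 0 Hox regions were called with either scaling, and at the unadjusted level 0 passed scaled (5.16% of all regions) and 3 as given (32.9%). As given, both Old libraries were below both Young libraries in 5 of 8 Hox regions, as they were in 60.2% of all regions, and above them in 0 (1.29% of all regions). The 5 include the region downstream of Hoxd3, which carries only the letter Y. After scaling, both Old libraries were below both Young libraries in 0 Hox regions (17.1% of all regions) and above them in 4 (16.9% of all regions). The median log2 change of the 8 Hox regions was -0.22 as given and 0.13 after scaling.

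The Hoxa6 to Hoxa11 region had a mean of 157 ± 3.94 RPM in Young and 126 ± 2.63 RPM in Old (SD, n = 2 each). As given, its log2 change was -0.31 (SE 0.12, limma adjusted p = 0.066), and after scaling it was 0.04 (SE 0.085, adjusted p = 0.979), where leaving out Young replicate 1 gave -0.02 and leaving out Old replicate 2 gave -0.04. The Hoxc4 to Hoxc11 region had 224 ± 12.96 RPM in Young and 189 ± 10.4 RPM in Old. Its log2 change was -0.25 as given (SE 0.11, limma adjusted p = 0.101) and 0.10 after scaling (SE 0.073, adjusted p = 0.918). With RPM as given and without Young replicate 2 it passed the threshold, at -0.31 (limma adjusted p = 0.0462), in a fit in which 8.74% of all regions passed. In the main HoxD region, with 64.1 ± 7.50 RPM in Young and 51.0 ± 3.00 RPM in Old, the log2 change was -0.32 as given (SE 0.16, limma adjusted p = 0.157) and 0.03 after scaling (SE 0.15, adjusted p = 0.995). Without Young replicate 2 the scaled value was -0.01. The Hoxc13 region had the lowest p after scaling, with a log2 change of 0.44 (SE 0.28, limma adjusted p = 0.908). As given, its change was 0.09 (SE 0.30, limma adjusted p = 0.827), with 8.65 ± 1.26 RPM in Young and 9.26 ± 1.29 RPM in Old. All of these changes are on the log2(RPM + 0.5) scale, and the sign of the 3 large ones turned with the scaling.

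The effect of acetate was examined by comparing OldAcetate with Old, where the median of all regions was at 0.24 (log2) with RPM as given. Again 0 Hox regions passed, against 0% of all regions after scaling and 0.311% as given. At an unadjusted p under 0.05 limma gave 0 Hox regions after scaling (6.24% of all regions) and 2 as given (18.0%). By edgeR 0 were called with either scaling, and at the unadjusted level 0 passed scaled (5.35% of all regions) and 2 as given (16.6%). Both OldAcetate libraries were above both Old libraries in 2 Hox regions as given, Hoxa6 to Hoxa11 and Hoxc4 to Hoxc11, as in 47.1% of all regions, and below them in 0 (3.46% of all regions). After scaling they were above in 0 Hox regions (16.7% of all regions) and below in 1, that downstream of Hoxd3 (17.2% of all regions). The Hoxc4 to Hoxc11 region had 240.0 ± 29.8 RPM in OldAcetate, with a log2 change of 0.34 as given (SE 0.11, limma adjusted p = 0.102) and 0.10 after scaling (SE 0.073, adjusted p = 0.887). It passed as given when Young replicate 1 or Young replicate 2 was left out of the shared fit (0.34, limma adjusted p = 0.0306 and 0.0313), although neither is part of this contrast. In those fits 0.909% and 0.896% of all regions passed. Without OldAcetate replicate 1 its scaled value was -0.01, and without OldAcetate replicate 2 it was 0.21.

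The Hoxa6 to Hoxa11 region had 155 ± 5.92 RPM in OldAcetate, with a log2 change from Old of 0.29 as given (SE 0.12, limma adjusted p = 0.183) and 0.05 after scaling (SE 0.085, adjusted p = 0.960). Without Old replicate 1 the scaled value was -0.03. The main HoxD region had the lowest p of the Hox regions in this comparison after scaling, with 51.1 ± 18.0 RPM in OldAcetate and a log2 change of -0.28 (SE 0.15, limma adjusted p = 0.810), against -0.04 as given (SE 0.16, adjusted p = 0.907). This scaled value was 0.07 without OldAcetate replicate 2 and -0.63 without OldAcetate replicate 1. For Hoxc13, with 12.9 ± 4.09 RPM in OldAcetate, the log2 change as given was 0.43 (SE 0.30, limma adjusted p = 0.428). Hoxc13 carries the letters of OldAcetate and Young and not that of Old. A rise over Old there follows in part from how the region was listed, if the letters are calls. Its scaled log2 change of 0.19 (SE 0.28, limma adjusted p = 0.953) became -0.11 without OldAcetate replicate 1 and 0.49 without OldAcetate replicate 2.

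OldAcetate was also compared with Young, which uses libraries of both comparisons above and is not independent of them. The median of all regions was at -0.11 (log2) as given, and 0 Hox regions passed in either fit, with 0% of all regions called in both. Limma gave 2 Hox regions at an unadjusted p under 0.05 in each fit, where 5.08% of all regions passed scaled and 6.10% as given. The fits shared none of these regions. After scaling they were Hoxc4 to Hoxc11 and Hoxc13, both higher in OldAcetate. As given they were the main HoxD region and that downstream of Hoxd3, both lower in OldAcetate. By edgeR 0 were called, and at the unadjusted level 2 passed scaled (6.77% of all regions) and 3 as given (7.97%). After scaling, the Hoxc4 to Hoxc11 region had the lowest p of the Hox regions, with a log2 change of 0.20 (SE 0.073, unadjusted p = 0.00705, limma adjusted p = 0.964), and with 0.09 as given (SE 0.11, adjusted p = 0.928). The scaled value was 0.090 without OldAcetate replicate 1 and 0.32 without OldAcetate replicate 2. Also after scaling, the Hoxa6 to Hoxa11 region was at 0.09 (SE 0.085, limma adjusted p = 0.984), and as given at -0.02. The main HoxD region was at -0.25 after scaling (SE 0.15, limma adjusted p = 0.964), which became 0.10 without OldAcetate replicate 2 and -0.60 without OldAcetate replicate 1. As given it was at -0.36 (limma adjusted p = 0.781). Hoxc13 was at 0.63 after scaling (SE 0.28, limma adjusted p = 0.964), which became 0.33 without OldAcetate replicate 1 and 0.94 without OldAcetate replicate 2. As given, Hoxc13 was at 0.52 (limma adjusted p = 0.835). As given, both OldAcetate libraries were below both Young libraries in 1 Hox region, that downstream of Hoxd3 (29.8% of all regions), and above them in 1, Hoxc13 (7.60% of all regions). After scaling they were below in 1, again that downstream of Hoxd3 (18.1% of all regions), and above in 2, Hoxc13 and Hoxc4 to Hoxc11 (17.7% of all regions). The region downstream of Hoxd3 carries only the letter Y, so its lower OldAcetate values follow in part from how it was listed, if Y is a call in Young.

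**Figure D5:**
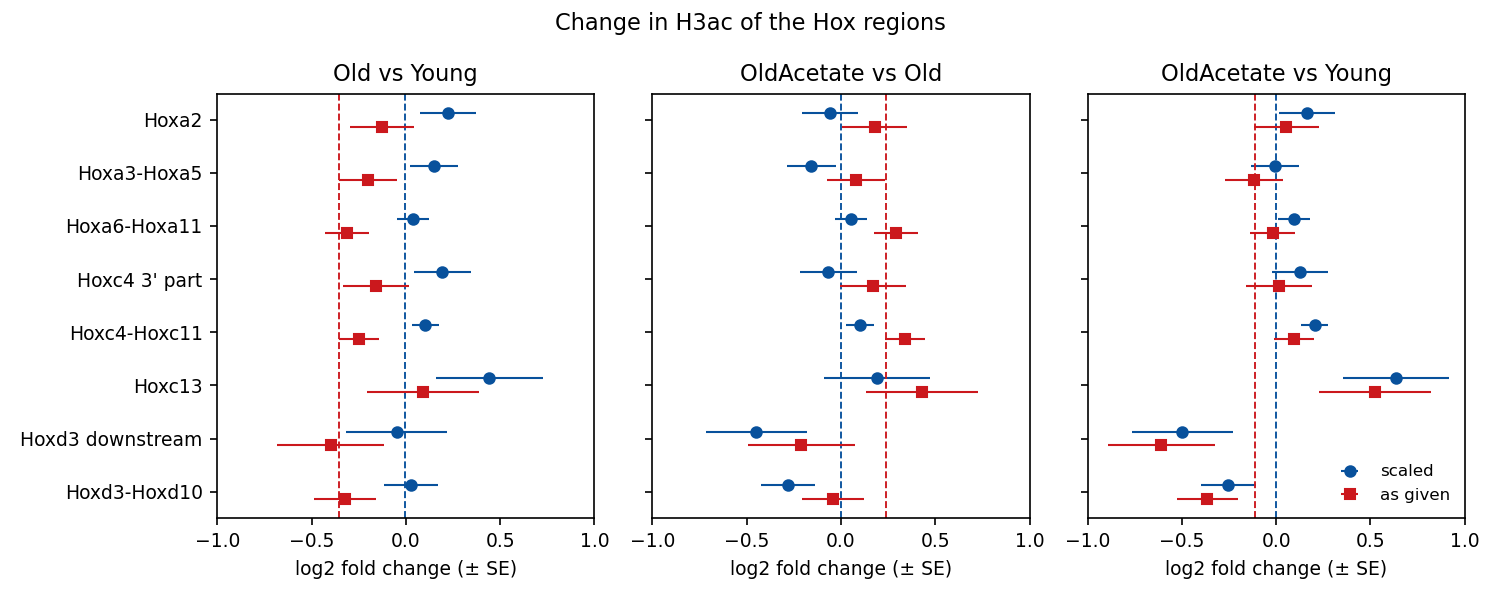
Log2 fold changes of the 8 Hox regions in the 3 comparisons, with horizontal bars of 1 SE from the limma fit. Blue circles are scaled values, red squares are RPM as given, and dashed lines in the same colours mark the median of all 24431 regions, which lies at -0.35, 0.24 and -0.11 as given. The 2 kinds of value are shifted against each other by about that median, and no Hox region passed the adjusted threshold in any panel.

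Summed over the 8 Hox regions, the level was 639 and 599 RPM in Young, 535 and 507 RPM in Old, and 637 and 595 RPM in OldAcetate. The 2 Old libraries were thus the lowest. The Young mean was 619 ± 28.6 RPM, the Old mean 521 ± 19.6 RPM and the OldAcetate mean 616 ± 29.6 RPM (SD, n = 2 for each group), so that Old stood at 84.2% of Young and OldAcetate at 118% of Old. As log2 ratios these are -0.25 and 0.24, and relative to the median of all regions they are 0.11 and 0.00. The share of the clusters in the Hox total was 38.9% to 45.9% for HoxA, 43.9% to 49.5% for HoxC and 7.85% to 13.1% for HoxD, with the lowest HoxD share in OldAcetate replicate 2.

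Most genes that act with or upon Hox genes were covered. All 8 listed genes of the PBX, MEIS and PKNOX families, the DNA-binding partners of HOX proteins, were covered, with mean levels of the strongest region from 11.2 RPM at Pbx4 to 70.5 RPM at Pbx2. All 9 Trithorax genes, which keep Hox genes active and include the methyltransferase gene Kmt2a, all 23 Polycomb genes, which keep them silent and include Ezh2 and Bmi1, and all 8 genes of CTCF and cohesin were covered as well. Both other regulators listed, Gmnn and Hmga2, were covered. The retinoic acid pathway, which switches on Hox genes in the embryo, had 10 of 13 genes covered, with 192 RPM at the receptor gene Rara and no region at Aldh1a2, Cyp26a1 or Cyp26c1. Of 4 upstream regulators, Gdf11 was covered, and the 3 Cdx genes were not. Together the lists had 61 of 67 genes covered by 107 regions, where 63.3% of all protein-coding genes were covered by the same rule. The difference was not tested. Of these, 0 passed after scaling in any comparison. As given, 15 were lower in Old than in Young (9.52% of all regions passed in that comparison), 1 was higher in OldAcetate than in Old (0.311% of all regions passed), and 0 passed between OldAcetate and Young. Their median log2 change from Young to Old was -0.34 as given, beside -0.35 for all regions.

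Position genes outside the clusters were covered unevenly. Of all protein-coding genes, 63.3% were covered by the same rule and 57.7% had a start site in a region. All 3 genes of hindlimb identity had a region at their start, with means of 41.6 RPM at Pitx1, 25.9 RPM at Tbx4 and 15.9 RPM at Isl1. The forelimb gene Tbx5 had none, and the nearest region was 144668 bp away. Pitx1 had 50.0 and 34.3 RPM in Young, 37.9 and 35.0 RPM in Old, and 51.1 and 41.3 RPM in OldAcetate, and its groups overlapped. The 4 listed genes of the proximal limb and girdle were all covered, Meis1, Meis2 and Emx2 among them. Of the 5 distal genes 4 were covered (Hand2, Sall1, Msx1 and Msx2), and Shh was not. Of 9 genes of the head and forebrain, where Hox genes are off, 2 were covered, Otx1 at 13.1 RPM and Lhx2 at 10.8 RPM. After scaling, 0 regions of these lists passed in any comparison. As given, 1 of the 5 regions at distal genes was lower in Old than in Young (9.52% of all regions passed), and 0 passed in the other comparisons. Of the 14 annotated protein-coding genes listed on either side of the clusters, 12 were covered, and the other 2 were Ttll6 and Calcoco2 in the interval around HoxB. Of the 14 annotated non-coding RNA and microRNA genes listed inside the clusters, 8 were covered. Among these 2 lists, 0 regions passed after scaling, and as given 2 of the 18 regions at flanking genes were lower in Old than in Young, where 9.52% of all regions passed.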

How the data were processed

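The authors deposited a single table of H3ac CUT&RUN values in RPM (reads of a region per 1000000 reads of the library), 1 column per library, over regions shared by all libraries. The table is named as RPKM, but in each column 100% of values were whole multiples of the value of 1 read (tolerance 0.01), whatever the region length, so whole reads and library totals were recovered. The submitters' processing notes name Bowtie2, Picard and mm10. The region caller, and whether yeast DNA added at the nuclease stop was used for scaling, are not given in the sources used here. Region bounds were multiples of 500 bp.

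Hox genes and all protein-coding genes were taken from GENCODE vM21 (GRCm38). For each region, log2(RPM + 0.5) was fitted with limma 3.58.1 (R 4.3.3), after each library had been scaled by its median deviation, with all 6 libraries in 1 fit of group means, eBayes with trend and robust, and Benjamini-Hochberg adjustment over all 24431 regions at 0.05. RPM as given was fitted the same way. edgeR 4.0.16 on recovered reads, pseudocounts of 0.1 and 1, quantile scaling, leaving out the 25% of regions with the lowest level, a threshold of 0.01, only the compared libraries, eBayes without trend and robust, a replicate block and omission of each library were alternatives. RPM as given with omission of each library was added after seeing the data. The fits were tested on simulated data. By rule, every Hox region is given with its 6 values, and tests are printed for the region with the highest level in each cluster and the lowest p in each comparison. Hoxc13 met this rule only through Old vs Young after scaling. Its tests in the other comparisons are printed with its values already seen. The members and gene lists were chosen with earlier results of these data known, and some listed genes are not reported here and were left out of the counts. Intervals cover counting error only. Plots were made in Python 3.11.15 using matplotlib 3.10.9.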

Additional observations from a re-analysis of the deposited data

How the results depend on the processing

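The count of Hox regions called was 0 in every comparison under each alternative that changed 1 choice at a time. With RPM as given and 1 library left out, which was chosen after seeing the data, it was 1 in Old vs Young without Young replicate 2, and 1 in OldAcetate vs Old without Young replicate 1 and 1 without Young replicate 2. In each case this was the Hoxc4 to Hoxc11 region, and 8.74%, 0.909% and 0.896% of all regions passed in those fits. Under the alternatives that changed 1 choice at a time, log2 changes of the named regions turned sign as follows, none of them past the threshold. In Old vs Young, RPM as given and edgeR without factors both gave -0.31 for Hoxa6 to Hoxa11 and -0.25 for Hoxc4 to Hoxc11, and gave -0.32 and -0.34 for the main HoxD region. Omission of single libraries gave ranges of -0.044 to 0.12 for Hoxa6 to Hoxa11 and of -0.0091 to 0.065 for HoxD. In OldAcetate vs Old these ranges were -0.028 to 0.14 for Hoxa6 to Hoxa11, -0.013 to 0.21 for Hoxc4 to Hoxc11, -0.63 to 0.070 for HoxD and -0.11 to 0.49 for Hoxc13, and edgeR without factors gave 0.027 for HoxD. In OldAcetate vs Young, Hoxa6 to Hoxa11 was at -0.019 with RPM as given and at -0.021 with edgeR without factors, and omission gave -0.60 to 0.10 for HoxD, 0.090 to 0.32 for Hoxc4 to Hoxc11 and 0.33 to 0.94 for Hoxc13, the latter 2 without a change of sign. The cause was not tested beyond what these settings change. Relative to the median of all regions, the log2 ratio of the summed Hox level was 0.11, 0.0016 and 0.10 in the 3 comparisons, in place of -0.25, 0.24 and -0.01.

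The deviations of same-numbered libraries from their group means correlated over regions at 0.01, -0.03 and -0.04. The median region held 31 to 56 reads per library, and counting error at that depth lowers such correlations. They therefore do not decide whether replicate numbers paired the samples. With the replicate number as a block, 0 Hox regions were called in each comparison, as without the block.

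The lowest Hox value rested on 19 reads, and precision is further limited by 2 libraries a group.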
